A study of Homo sapiens with 12 samples.

Results

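The segment of chromosome 17 around ERBB2 was examined for N6-methyladenosine (m6A) on the RNA of its other genes. Its members are all m6A peaks and compared regions that start between positions 36500000 and 38700000 of chromosome 17 in the coordinates of the deposited files, without those of ERBB2 itself. They comprised 1054 of 178818 listed peaks over 6 libraries and 113 of 17301 compared rows, on 41 genes. A compared region can be listed for several isoforms, and the 113 rows formed 52 merged regions. The rule uses position alone, although the segment was picked for description with earlier results of these data known.

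m6A is placed on adenosines of messenger RNA by a METTL3 and METTL14 methyltransferase complex and is bound by reader proteins of the YTH family, which are known to affect splicing, translation and decay of the marked RNA. In most mammalian cells the mark is known to be dense near stop codons and in 3′ UTRs. The 17q12 segment is amplified together with ERBB2, the receptor targeted by trastuzumab (Herceptin), in a subset of breast cancers, and the neighbours STARD3, PGAP3, MIEN1 and GRB7 are known to be carried along most often.

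The tested cells were a trastuzumab-resistant derivative of BT474 (BT474.TtzmR in the labels), and they were set against the sensitive BT474 cells. BT474 was derived from a human breast tumour and carries many copies of ERBB2; both lines were grown in DMEM with fetal bovine serum. Each line had 3 pull-down (IP) libraries, in which RNA fragments are captured with an antibody against m6A, and 3 input libraries. How resistance was obtained, whether the derivative is a clone and whether trastuzumab was in the medium are questions that the sources used here do not answer. No label says that the replicates came from separate cultures; a p-value from permuting libraries therefore reflects the spread between them, which may be technical. No copy number was measured, and the input libraries were not analysed here, so the amount of RNA and the degree of methylation of a gene cannot be told apart from its peaks alone.

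The lists held 30767 to 32638 peaks in resistant and 26028 to 29063 peaks in sensitive libraries. Peaks are repeated in the lists for every isoform that holds them, and rows were therefore also merged where they shared at least 1 exonic base on a strand. Read depth per library is unknown. Of 9 genes that mark luminal breast cells, all 9 had a peak in at least 1 library, although ESR1 had one in 1 resistant and 0 sensitive libraries. Of 7 genes that mark blood, endothelial or stromal cells, 5 had none, COL1A1 had a peak in all 6 libraries, and VIM had one in 1 resistant and 1 sensitive library.

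Most genes of the segment carried m6A in both lines. A peak was present in all 6 libraries for 30 of the 41 genes (73.2%), compared with 4670 of 8353 genes (55.9%) in the series as a whole. Another 9 genes had a peak in 2 to 5 libraries, and RPL23 and RAPGEFL1 had one in sensitive replicate 1 alone. By the neighbouring order of genes in RefSeq (GRCh38.p14), 50 protein-coding genes besides ERBB2 lie from SRCIN1 to TNS4, and 38 of them were among the 41. The 12 without a peak or compared region included PSMB3, a proteasome subunit, NEUROD2, a neuronal transcription factor, the cytokine gene CSF3 and GSDMA. The remaining 3 names, AC006449.1, CTB-58E17.5 and CTD-2267D19.3, have no symbol in that table.

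Merged over the 6 lists, the segment held 96 regions, of which 50 (52.1%) were present in all 6 libraries, compared with 33.3% of 17160 regions elsewhere. Up to 9 regions fell on a single gene, MLLT6, and 15 genes had 1 region each. The first peaks within the bounds were those of SRCIN1, an adaptor that binds and restrains the kinase SRC, and the last those of TNS4, a focal adhesion protein of the tensin family. SRCIN1 had a peak in all 6 libraries, with highest folds between 3.87 and 16.5. TNS4 had one in 2 resistant libraries and 0 sensitive libraries, at folds of 8.96 and 15.3. Outside the bounds, the nearest peak before them (35974325 to 35980919) belonged to DDX52, an RNA helicase gene. DDX52 had peaks in 3 resistant and 3 sensitive libraries and highest folds of 10.2 to 28.9. The nearest peak after them (38711623 to 38711682) was of the chemokine receptor gene CCR7, in 1 resistant library at a fold of 7.58.

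**Figure D1:**
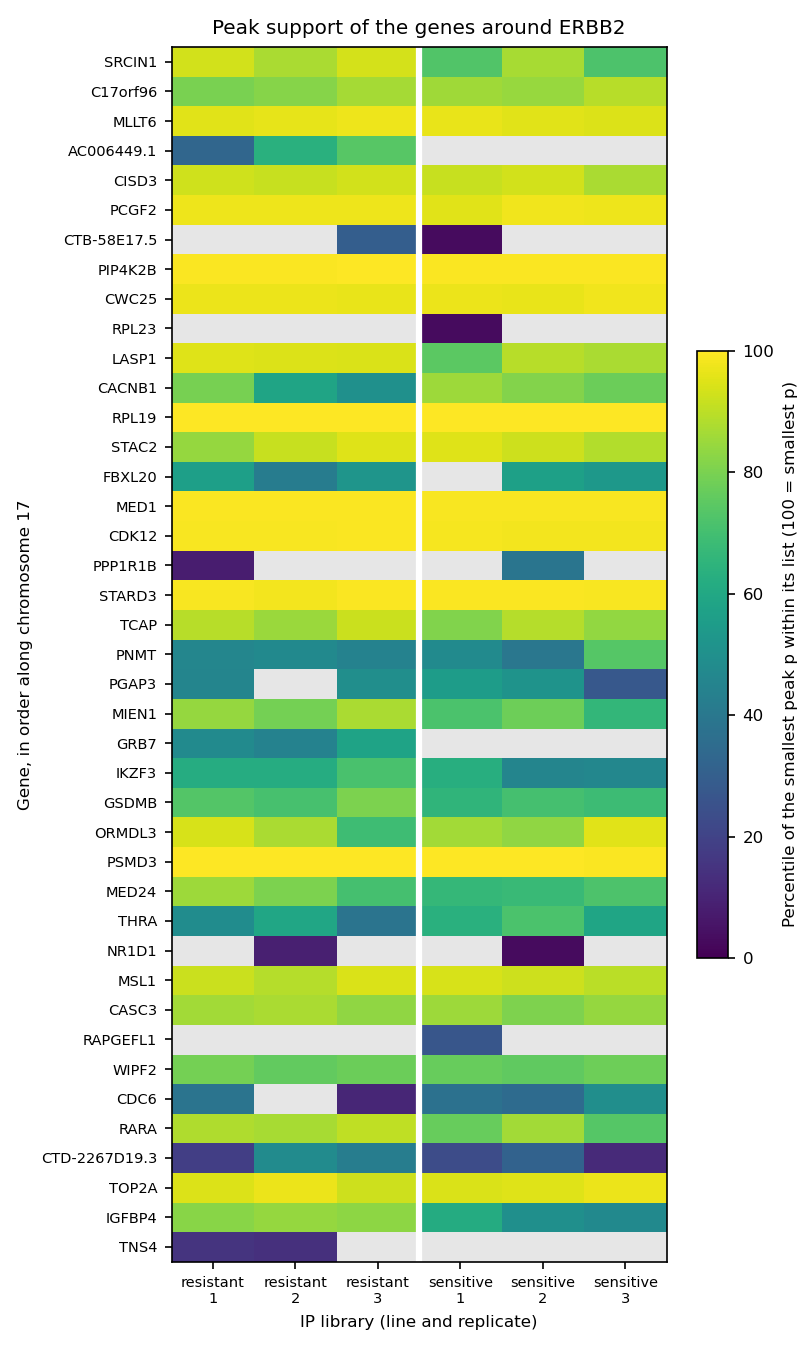
Peak support of the 41 genes of the segment, from top to bottom in their order along chromosome 17, in 3 resistant (left) and 3 sensitive (right) IP libraries. Colour gives the percentile of the gene's smallest peak p within its own list, with 100 for the smallest p, and grey marks a gene without a peak; RPL19, PSMD3, PIP4K2B, MED1, STARD3 and CDK12 are near 100 in all 6 libraries, and GRB7 is grey in the 3 sensitive libraries.

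The number of listed peaks in the segment was higher in each resistant library than in any sensitive one, as for the whole lists. They numbered 206, 180 and 185 in the resistant libraries and 167, 171 and 145 in the sensitive libraries. The lowest resistant library stood above the highest sensitive library (exact permutation test, two-sided, p = 0.1, adjusted p = 0.4 over 4 comparisons). With 3 libraries against 3, the smallest p is 0.1. As a share of its list, the segment took 0.631%, 0.585% and 0.575% in the resistant libraries and 0.575%, 0.608% and 0.557% in the sensitive libraries, so the lines overlapped (exact permutation test, p = 0.6, adjusted p = 0.6). Without resistant replicate 1, the library with the largest share, the mean difference between the lines was -0.000135 points in place of 0.0170.

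Merged regions and genes with a peak also overlapped between the lines. There were 78, 74 and 70 merged regions in resistant and 73, 74 and 63 in sensitive libraries (exact permutation test, p = 0.5, adjusted p = 0.6). Genes with a peak numbered 37, 35 and 36 in resistant and 35, 35 and 33 in sensitive libraries (exact permutation test, p = 0.3, adjusted p = 0.6). Of 69 regions found in at least 2 of 3 resistant libraries, 11 (15.9%, exact Clopper-Pearson 95% interval 8.24 to 26.7) overlapped no such sensitive region, compared with 24.4% of 10317 resistant regions in the whole series. Of 64 such sensitive regions, 6 (9.38%, interval 3.52 to 19.3) overlapped no resistant region, compared with 12.3% of 9092 in the whole series. The intervals of the segment overlap and cover counting error only. With 1 library of a line left out, its regions had to be in 2 of 2 libraries, while the other line kept 2 of 3. The shares of the lines then follow unlike rules, so their order cannot be ascribed to a replicate. Without resistant replicate 1 the shares were 8.47% for resistant and 15.6% for sensitive cells. Without resistant replicate 2 they were 9.52% and 9.38%, and without resistant replicate 3 they were 11.5% and 15.6%. Without sensitive replicate 1 they were 21.7% for resistant and 3.51% for sensitive cells, and without sensitive replicate 2 they were 24.6% for resistant and 3.70% for sensitive cells.

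Peaks of the segment had smaller p-values but lower fold enrichment than peaks elsewhere. The fold enrichment and p of each peak are the authors' own and were compared within a list. The median −log10 p of merged regions was 15.3, 14.6 and 18.3 around ERBB2 in the resistant libraries, against 6.12, 6.16 and 6.20 elsewhere in the same lists. In the sensitive libraries it was 13.6, 12.6 and 16 around ERBB2, against 6.27, 5.88 and 5.85 elsewhere. The difference averaged 8.98 ± 1.97 (SD, n = 6) and was positive in 6 of 6 libraries (exact sign-flip permutation test, two-sided, p = 0.03125, adjusted p = 0.03125 over 4 measures). That p is the smallest this test can give, and since every list holds much the same genes, it measures spread between libraries and not between genes.

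The median fold enrichment of merged regions was 3.31, 3.01 and 3.49 around ERBB2 in resistant libraries, against 4.13, 3.91 and 3.98 elsewhere. In sensitive libraries it was 3.07, 2.97 and 3.36 around ERBB2, against 3.78, 3.94 and 3.91 elsewhere. On the log2 scale the difference was -0.30 ± 0.086 (SD, n = 6), negative in 6 of 6 libraries (exact sign-flip permutation test, p = 0.03125, adjusted p = 0.03125). Among peaks with a fold of at least 5 the direction reversed, to a difference of 0.52.

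Set against 2 other segments that are known to be amplified in BT474, the position of the segment differed by measure. Regions of a window at 17q23 (56 to 60 Mb of chromosome 17) had a mean of 14.1 for the median −log10 p, and the difference of the ERBB2 segment from it was 0.977 (positive in 5 of 6 libraries, exact sign-flip permutation test, p = 0.5). Regions of a window at 20q13 (45 to 56 Mb of chromosome 20) had a mean of 9.80, and the ERBB2 segment stood 5.26 above it (6 of 6 libraries, exact sign-flip permutation test, p = 0.03125). The median log2 fold enrichment around ERBB2 differed from 17q23 by -0.17 (6 of 6 libraries, exact sign-flip permutation test, p = 0.03125) and from 20q13 by 0.05 (4 of 6 libraries, exact sign-flip permutation test, p = 0.4375). Both windows were chosen after the data had been seen.

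**Figure D2:**
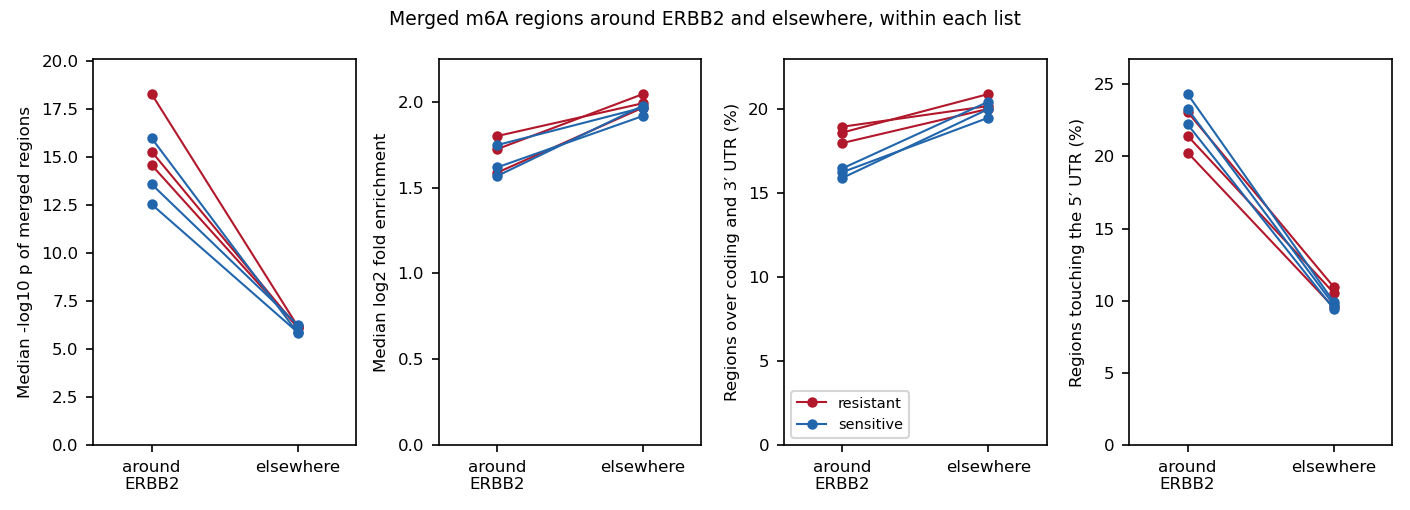
Merged m6A regions around ERBB2 (left in each panel) and elsewhere (right), 1 line per IP library, resistant in red and sensitive in blue. From left to right the panels give the median −log10 p, the median log2 fold enrichment, the share of regions over coding sequence and 3′ UTR, and the share touching the 5′ UTR; in all 6 libraries the first and last are higher around ERBB2 and the middle 2 are lower.

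The regions of the segment lay toward the 5′ end of transcripts more often than regions elsewhere. Those touching the 5′ UTR made up 23.1%, 20.3% and 21.4% of merged regions around ERBB2 in resistant libraries, against 10.97%, 9.55% and 10.6% elsewhere. In sensitive libraries they made up 23.3%, 24.3% and 22.2%, against 9.73%, 9.93% and 9.45% elsewhere. The difference averaged 12.4 ± 1.46 percentage points (SD, n = 6; 6 of 6 libraries, exact sign-flip permutation test, p = 0.03125, adjusted p = 0.03125), a comparison chosen after the data had been seen. It was 3.99 points against the 17q23 window and 12.6 points against the 20q13 window.

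Over the 6 lists, 21 merged regions on 19 genes touched the 5′ UTR, and 15 of these regions were in all 6 libraries. They included regions of the transcription genes MLLT6, PCGF2, CDK12 and MSL1, of the proteasome subunit gene PSMD3 and of the receptor gene RARA. Regions spanning coding sequence and 3′ UTR, the class that holds the stop codon, were fewer. They took 17.9%, 18.9% and 18.6% of the segment's regions in resistant and 16.4%, 16.2% and 15.9% in sensitive libraries. The mean difference from elsewhere was -2.81 ± 1.14 percentage points (SD, n = 6; 6 of 6 libraries, exact sign-flip permutation test, p = 0.03125, adjusted p = 0.03125), and with peaks of a fold of at least 5 it was -0.627 points (p = 0.71875, exact sign-flip permutation test).

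The genes with the smallest peak p-values included several for basic cell functions. RPL19, a protein of the large ribosomal subunit, had a peak over the end of its coding sequence with a listed p of 0 in all 6 libraries. Its fold enrichments were low, at 1.86, 1.97 and 1.95 in resistant and 1.68, 1.68 and 1.57 in sensitive libraries. Its 4 isoform rows all stood at a fold of 1.13 in the authors' deposited table, with a smallest deposited p of 1e-179 and no call. RPL19 thus combined the smallest deposited p of the segment with a fold close to 1.

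PSMD3, a subunit of the proteasome lid, had its strongest peak over the 5′ UTR and coding sequence. The fold enrichments there were 3.34, 2.89 and 3.09 in resistant and 2.64, 2.74 and 2.70 in sensitive libraries. The resistant values lay above the sensitive ones, and the 3 compared rows of PSMD3 were not called, with folds of 1.14 to 1.17 in the authors' deposited table. PSMB3, the other proteasome gene of the segment, had no peak, so that 1 of the 2 proteasome genes was compared and 0 called. In all, 14.2% of compared genes were called higher and 2.76% lower. With 1 gene compared, the count says nothing about the proteasome genes as a set.

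MED1, the Mediator subunit that contacts nuclear receptors, carried a peak over the end of its coding sequence in every library. Its folds were 3.26, 3.42 and 3.18 in resistant and 3.22, 3.11 and 3.20 in sensitive libraries, and the lines overlapped. The p-values of MED1 ran from 1e-250 to 1e-135, yet the gene had no row in the comparison. MED24, another Mediator subunit, had a 3′ UTR peak with folds of 3.72, 3.01 and 3.72 in resistant and 1.85, 2.34 and 2.32 in sensitive libraries. All 3 resistant values of MED24 were above the sensitive ones, while its 4 rows in the authors' deposited table had folds of 1.19 to 1.22 and no call.

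CDK12, a kinase that phosphorylates RNA polymerase II and is needed for the expression of long DNA repair genes, had 5 merged regions in the lists. The strongest, in the coding sequence (chromosome 17, 37619341 to 37650937, with introns inside), had folds of 3.78, 4 and 4.39 in resistant and 3.59, 3.86 and 3.42 in sensitive libraries, with overlap of the lines. All 8 rows of CDK12 stood above 1 and below the limit in the authors' deposited table, at 1.09 to 1.23. Of the other genes of RNA processing, CWC25, a splicing factor, had 3 rows between 0.832 and 1.1 and CASC3, a core protein of the exon junction complex, 1 row at 1.19 in the authors' deposited table, with 0 calls. All 3 RNA processing genes were compared and 0 called, where 14.2% of all compared genes were called higher and 2.76% lower. The median fold of the RNA processing genes' rows in the authors' deposited table was 1.13, against 1.25 for the whole table.

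Compared between the lines, most listed rows of the segment stood slightly higher in resistant cells without reaching the authors' fold limit. The 113 rows formed 52 merged regions, so the shares below are of rows, in which genes with many isoforms weigh more. A region counted as called when its deposited p was below 0.05 and its fold, resistant over sensitive, was at least 1.5, or at least as far below 1 on the log scale. Of the 113 rows in the authors' deposited table, 99 (87.6%) had a fold above 1, compared with 75.04% of the whole table. Only 48 of the 113 lay above the median fold of the whole table. The median fold in the authors' deposited table was 1.21 for the segment and 1.25 for the whole table, and the range between the quartiles ran from 1.13 to 1.36 for the segment and from 1.04 to 1.46 for the table. Of the 31 genes compared in the authors' deposited table, 24 had every row above 1, 4 every row below 1 and 3 rows on both sides.

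Calls took a similar share of the segment and of the whole table. Of its 113 rows in the authors' deposited table, 13 (11.5%) were called, and 11.6% of all rows were. Higher calls in the authors' deposited table took 9.73% of the segment's rows, against a background of 9.88%, and lower calls 1.77%, against 1.75%. Under Benjamini-Hochberg adjustment of the deposited p-values in the authors' deposited table, 8 rows were called higher and 0 lower, and 7.32% of the whole table in either direction. Among the 31 genes in the authors' deposited table, 4 had a row called higher (12.9%, against 14.2% of all compared genes) and 2 a row called lower (6.45%, against 2.76%). P-values below 0.05 in the authors' deposited table were more frequent in the segment, at 89 of 113 rows (78.8%), than in the table, at 45.2%, but 76 of these 89 rows stayed within the fold limits. The shares called higher were thus close to those of the whole table. Among the 113 rows, 4 (of CACNB1, THRA and TNS4) overlapped no listed peak, and 0 of these 4 were called.

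**Figure D3:**
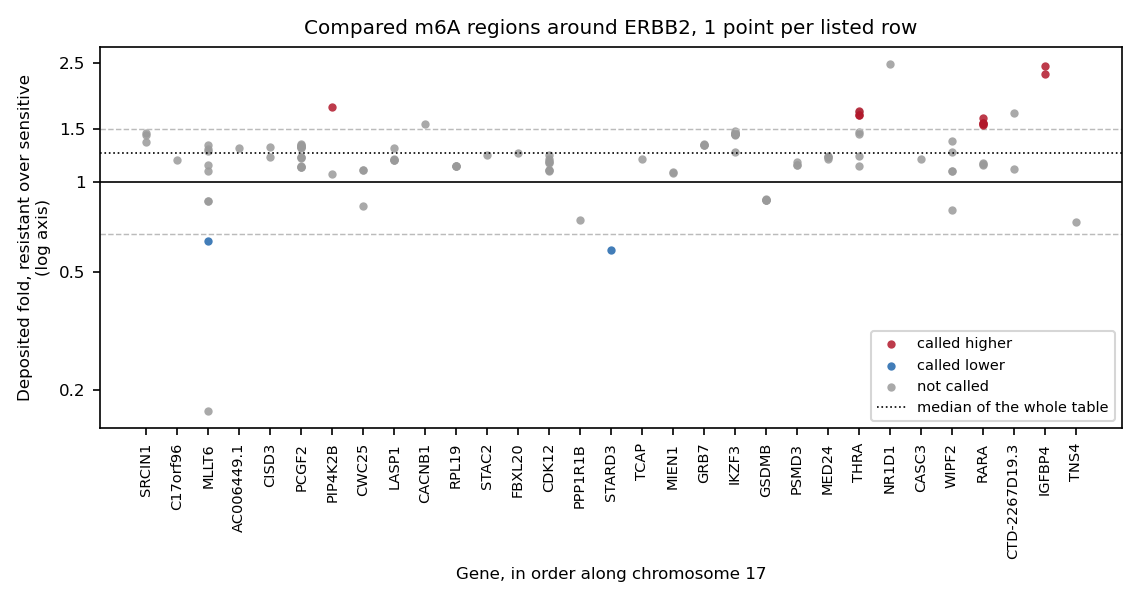
Folds of the 113 compared rows, resistant over sensitive, from the authors' deposited table (log axis), by gene in order along chromosome 17. Red points are called higher and blue points lower, the dashed lines are the authors' fold limits on both sides of 1, and the dotted line is the median of the whole table at 1.25; most points lie between 1 and 1.5.

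The 4 genes called higher were IGFBP4, RARA, PIP4K2B and THRA, in 4 merged regions, of which 3 touched the 5′ UTR. By rows of the authors' deposited table, 6 of the 11 called higher touched the 5′ UTR, compared with 17.3% of 1709 rows called higher in all, and the 6 were isoform rows of IGFBP4, PIP4K2B and THRA. Of the segment's 22 rows touching the 5′ UTR these 6 made up 27.3%, and 13.6% of such rows of the whole of the authors' deposited table were called higher. IGFBP4, a secreted protein that binds insulin-like growth factors and limits their access to the receptor, had the largest called fold of the segment. Its region covers the 5′ UTR and the start of the coding sequence (chromosome 17, 38599732 to 38600286). Fold enrichments there were 18.3, 15.2 and 10.4 in resistant and 4.47, 4.56 and 5.10 in sensitive libraries. All resistant values lay above all sensitive values. Fold enrichments of different lists are set side by side here without a test, since each list was made on its own.

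The 2 isoform rows of IGFBP4 in the authors' deposited table had folds of 2.45 (deposited p = 0.000219) and 2.30 (deposited p = 1.78e-06). Both remained past the limits after division by the median fold of the table, at 1.95 and 1.84, and both passed Benjamini-Hochberg adjustment of the deposited p-values over all regions, with adjusted values of 0.00242 and 4.79e-05. IGFBP4 was the only gene of the segment called higher under both of these alternatives.

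RARA, the retinoic acid receptor alpha, had 2 merged regions, of which 1 was called. The region at its stop codon end (chromosome 17, 38511591 to 38513018) had fold enrichments of 8.53, 7.67 and 10.6 in resistant and 6.98, 7.91 and 6.08 in sensitive libraries. Resistant replicate 2 and sensitive replicate 2 overlapped there, while the other values of resistant cells lay above those of sensitive cells. In the authors' deposited table, the 5 isoform rows of this RARA region were called higher, with folds of 1.55 to 1.63 and a smallest deposited p of 1.70e-10. After division by the median of the table the 5 folds were 1.24 to 1.30, within the limits. The 3 rows of the RARA region over the 5′ UTR and first coding exons stood at 1.14 to 1.16 in the authors' deposited table and were not called.

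PIP4K2B, a kinase that phosphorylates the signalling lipid phosphatidylinositol 5-phosphate, was called at its 5′ region and not at its 3′ UTR; the difference between the regions was not tested. Its region over the 5′ UTR and coding start (chromosome 17, 36955531 to 36956158) had fold enrichments of 85, 265 and 273 in resistant and 24.1, 89.4 and 83.1 in sensitive libraries. Resistant replicate 1 lay within the sensitive range and the other 2 resistant values above it. The deposited fold of this region of PIP4K2B was 1.79 (deposited p = 1.58e-12) by the authors' deposited table, or 1.43 after division by the median of the table, which is within the limits. The 3′ UTR region of PIP4K2B (chromosome 17, 36923853 to 36924570) held the gene's smallest peak p in every library, with folds of 4.06, 4.15 and 4.88 in resistant and 3.89, 4.25 and 3.99 in sensitive libraries, and stood at 1.06 in the authors' deposited table.

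CWC25 lies beside PIP4K2B on the same strand, and its 3′ UTR region begins 528 bases beyond the end of the PIP4K2B region. That CWC25 region (chromosome 17, 36956687 to 36957525) had fold enrichments of 56.5, 40.5 and 77.8 in resistant and 268, 180 and 85.1 in sensitive libraries. All sensitive values were above all resistant ones, whereas the lines overlapped at PIP4K2B. The fold of the CWC25 region was 0.832 (deposited p = 0.00676) in the authors' deposited table, within the limits, and 0.665 after division by the median of the table, past them.

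THRA, the thyroid hormone receptor alpha, was called in a 5′ UTR region that splices across an intron (chromosome 17, 38219242 to 38230460). It overlapped peaks of resistant replicates 1 and 2, with folds of 2.66 and 2.53, and no peak of sensitive libraries. The 3 isoform rows of THRA in the authors' deposited table had folds of 1.68, 1.68 and 1.73 (smallest deposited p = 0.0240). The adjusted p over all regions was 0.0687 at the smallest, so the THRA calls did not hold under Benjamini-Hochberg adjustment, and after division by the median of the table its folds of 1.34 to 1.39 were within the limits. The next region downstream, over the 5′ UTR and coding start, had a peak in all 6 libraries, with folds of 1.82, 2.48 and 1.84 in resistant and 1.72, 1.97 and 1.65 in sensitive libraries.

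NR1D1, a heme-binding repressor of the circadian clock that is encoded opposite the 3′ end of THRA, completes the nuclear receptors of the segment. It had a peak in 1 resistant library, at a fold of 8.37, and in 1 sensitive library, at 13.3. The 3′ UTR region of NR1D1 in the authors' deposited table had the highest fold of the segment, 2.48, with a deposited p of 0.0977 and no call. Of the 3 nuclear receptor genes, 2 had a row called higher and 0 a row called lower, where 14.2% and 2.76% of all compared genes did, and 0 of the 3 were called after division by the median of the table. For these genes the median fold of the rows was 1.57, compared with 1.25 over all of the authors' deposited table.

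**Figure D4:**
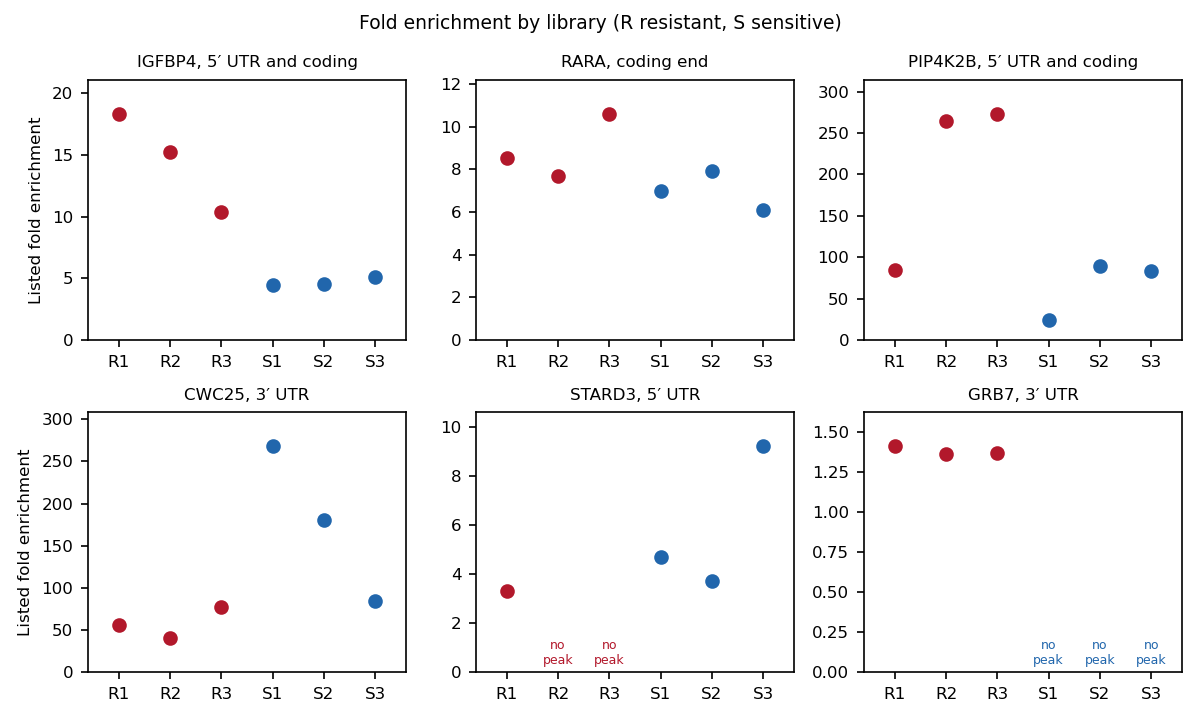
Listed fold enrichment (linear axis from 0) of 6 regions of the segment in each IP library, resistant replicates R1 to R3 in red and sensitive replicates S1 to S3 in blue; for each library the value is that of the overlapping row with the smallest p. The IGFBP4 values of 10.4 to 18.3 in resistant libraries stand above those of 4.47 to 5.10 in sensitive libraries, the CWC25 values run the other way, and GRB7 has no peak in sensitive libraries.

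Of the 11 names listed as the core of the amplicon, 9 had a peak, 6 of them in all 6 libraries; NEUROD2 had none, and C17orf37 is an older name of MIEN1. Of these genes, 7 were compared in the authors' deposited table, where 0 were called higher and 1, STARD3, was called lower, and the median fold of their rows was 1.24. Over all compared genes, 14.2% were called higher and 2.76% lower. ERBB2 itself, which is no member, had its strongest peak over the end of its coding sequence at folds of 2.92, 2.92 and 2.62 in resistant and 3.05, 2.61 and 2.47 in sensitive libraries, and folds of 1.08 to 1.14 in the authors' deposited table.

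STARD3, a cholesterol transfer protein of late endosomes, had 2 merged regions. The strong region, at the stop codon end (chromosome 17, 37819203 to 37819737), had folds of 4.44, 3.32 and 4.02 in resistant and 3.41, 3.56 and 3.26 in sensitive libraries and was not compared. The other, a 5′ UTR region of a short isoform, had a peak at 3.33 in resistant replicate 1 alone and at 4.72, 3.74 and 9.23 in the sensitive libraries. In the authors' deposited table this 5′ UTR region of STARD3 (chromosome 17, 37808771 to 37808977) had a fold of 0.590 with a deposited p of 0.0479 and an adjusted p of 0.107, so its call did not hold under adjustment.

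GRB7, an adaptor protein that binds ERBB2, had a 3′ UTR peak in all 3 resistant libraries and in no sensitive library. Such genes made up 1.78% of all genes with a peak, and in the segment GRB7 and AC006449.1 met the condition, while 0 genes met the opposite one (background 0.838%). The GRB7 peak (chromosome 17, 37903336 to 37903544) was weak, with folds of 1.41, 1.36 and 1.37. In the authors' deposited table, its 4 isoform rows had folds of 1.33 to 1.34 with a smallest deposited p of 4.07e-09, within the fold limits. A presence in a single line therefore went with a modest fold at this gene.

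AC006449.1 is annotated on the minus strand opposite the 3′ UTR of MLLT6, and its peak (chromosome 17, 36884114 to 36884423) covers the same positions as an MLLT6 region on the plus strand. The libraries were made with a stranded kit per the labels, but whether the peak calling used strand is not stated, so the peaks of AC006449.1 and MLLT6 are uncertain there. The same holds for CISD3 and PCGF2, which meet tail to tail and had regions at nearly the same positions on opposite strands (36890415 to 36890563 for CISD3 and 36890418 to 36890569 for PCGF2). Each was present in resistant replicates 2 and 3 and in no sensitive library.

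MIEN1, a small membrane-anchored protein next to ERBB2, was, with ORMDL3 and RPL19, among the 3 genes of lowest fold enrichment of those with a peak in all 6 libraries. Its 3′ UTR region had folds of 1.73, 1.63 and 1.84 in resistant and 1.45, 1.46 and 1.35 in sensitive libraries. The resistant values lay above the sensitive ones, although the 2 compared rows of MIEN1 stood at 1.07 and 1.08 in the authors' deposited table. ORMDL3, a regulator of sphingolipid synthesis, was likewise low, at 1.89, 1.53 and 1.36 in resistant and 1.66, 1.52 and 2.13 in sensitive libraries, with overlap of the lines and no compared row.

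TCAP, a titin-binding muscle protein gene within the core, had folds of 9.10, 7.05 and 9.87 in resistant and 5.52, 6.63 and 5.45 in sensitive libraries. All resistant values of TCAP were above the sensitive ones, but its compared row had a fold of 1.19 and a deposited p of 0.165 in the authors' deposited table. PNMT, which methylates noradrenaline to adrenaline, had a 5′ peak in all 6 libraries at folds of 17.9, 7.44 and 8.90 in resistant and 7.79, 4.8 and 29.0 in sensitive libraries, and PGAP3, an enzyme that remodels the lipid of GPI anchors, lacked a peak in resistant replicate 2 alone. Neither PNMT nor PGAP3 was compared. PPP1R1B, an inhibitor of protein phosphatase 1, had a peak in 1 library of each line, at 2.5 in resistant replicate 1 and 5.17 in sensitive replicate 2.

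IKZF3, a lymphoid transcription factor of the Ikaros family, stood just under the fold limit. Its 9 isoform rows, which form 1 merged region across the stop codon, had folds of 1.26 to 1.49 in the authors' deposited table, with a smallest deposited p of 7.41e-05 and 0 calls. The peak at the stop codon end was found in 3 resistant libraries, at 2.52, 2.35 and 2.71, and in 1 sensitive library, at 2.32. A neighbouring 3′ UTR region of IKZF3 was present in all 6 libraries, at 3.55, 3.67 and 4.90 in resistant and 3.19, 3.70 and 2.84 in sensitive libraries. The row at 1.26 (chromosome 17, 37921198 to 37922386) covers this neighbouring region too and overlapped peaks of 3 resistant and 3 sensitive libraries. The other rows overlapped peaks of 3 resistant libraries and 1 sensitive library.

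MLLT6, a chromatin reader gene found fused to KMT2A in leukaemia, had the most regions of the segment and rows in both directions. The 9 rows of MLLT6 in the authors' deposited table ran from 0.171 to 1.34. The row called lower, in the 3′ UTR of a short isoform (chromosome 17, 36877291 to 36877409), had a fold of 0.633 in the authors' deposited table with a deposited p of 0.0269 and an adjusted p of 0.0741, and peaks of 0 resistant and 2 sensitive libraries covered it. The row at 0.171 had a p of 0.0955 in the authors' deposited table and was not called. Within the long 3′ UTR, a region had fold enrichments of 69.4, 78.1 and 29.0 in resistant and 39.9, 18.9 and 15.3 in sensitive libraries, and the next one downstream 1.84, 1.61 and 1.93 in resistant and 2.30, 2.15 and 1.77 in sensitive libraries, with overlap of the lines at both. Of these, the region at 36883690 to 36884349 stood at 1.34 (deposited p = 2.51e-18) and the region at 36884559 to 36884888 at 0.860 (deposited p = 3.80e-06) in the authors' deposited table. These neighbouring regions of MLLT6 thus lay on opposite sides of 1, and neither passed the limits.

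The other chromatin genes were not called. PCGF2, a Polycomb repressive complex subunit, had 14 rows in 3 regions, at 1.12 to 1.34 in the authors' deposited table. MSL1, the scaffold of a histone H4 acetyltransferase complex, had peaks in all 6 libraries, with folds of 4.18, 3.79 and 4.95 in resistant and 4.28, 4.21 and 3.44 in sensitive libraries for its strongest region, and no compared row. Of the 5 chromatin and transcription genes listed, 3 were compared, of which 0 were called higher and 1, MLLT6, lower. Among all compared genes, 14.2% were called higher and 2.76% lower. The rows of the 3 listed genes had a median fold of 1.29 in the authors' deposited table, against 1.25 for the whole table. C17orf96, listed as EPOP in RefSeq and known to bind Polycomb repressive complex 2, had a stop codon region in all 6 libraries and 1 row at 1.18 in the authors' deposited table, without a call.

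Among the 5 genes of cytoskeleton and adhesion, 4 were compared and 0 called in either direction. Of all compared genes, 14.2% were called higher and 2.76% lower. ARHGAP23 had no peak, and the median fold of the compared rows was 1.19 in the authors' deposited table, against 1.25 for the whole table. SRCIN1 came closest to the fold limit, with 3 rows at 1.36 to 1.46 and a smallest deposited p of 2.00e-13 in the authors' deposited table. The fold enrichments of its region over the coding sequence and 3′ UTR were 15.9, 7.81 and 15.3 in resistant and 3.87, 11.3 and 2.17 in sensitive libraries, with sensitive replicate 2 inside the resistant range. LASP1, an actin-binding LIM protein, had a coding region at 1.74, 1.65 and 1.63 in resistant and 1.24, 1.52 and 1.5 in sensitive libraries, and folds of 1.18 to 1.30 in the authors' deposited table. A LASP1 region listed in the 3′ UTR of 1 isoform (chromosome 17, 37072406 to 37073090) lies within the span of that coding region. It reached far higher fold enrichments, 77.2, 43.3 and 81.2 in resistant and 42.5, 88.7 and 58.1 in sensitive libraries, with overlap of the lines. WIPF2, which binds the actin regulator WASP, had 5 rows at 0.808 to 1.37 in the authors' deposited table.

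The genes of replication and division, CDC6 and TOP2A, were not compared. TOP2A, the topoisomerase that anthracyclines act on, had a coding peak in all 6 libraries with folds of 3.71, 4.51 and 3.46 in resistant and 2.89, 2.92 and 3.58 in sensitive libraries, and the lines overlapped. CDC6, which loads the replicative helicase, had a 3′ UTR peak in 2 resistant libraries, at 22.0 and 13.9, and in 3 sensitive libraries, at 8.97, 11.8 and 14.2. GSDMB, a member of the pore-forming gasdermins, had 2 regions in all 6 libraries and another found in 0 resistant and 2 sensitive libraries; its 5 rows stood at 0.871 to 0.875 with a smallest deposited p of 0.0741 in the authors' deposited table. FBXL20, an F-box subunit of a ubiquitin ligase, had 1 row at 1.25 in the authors' deposited table, without a call. RPL23, a ribosomal protein gene with a peak in 1 sensitive library, was not compared.

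The remaining lists held few compared genes. Of 6 signalling genes, 5 had a peak, 2 of them in all 6 libraries, and SOCS7 had none; among the 4 compared in the authors' deposited table, IGFBP4 and PIP4K2B were called higher and 0 lower, where 14.2% of all compared genes were called higher, and the median fold was 1.33, compared with 1.25 for the whole table. After division by the median of the table, IGFBP4 alone of the 4 was called. Of 5 gasdermin and lipid genes, 4 had a peak and 2 were compared in the authors' deposited table. Of these 2, 0 were called higher and 1, STARD3, lower, where 14.2% and 2.76% of all compared genes were. Their median fold of 0.871 rests on 5 isoform rows of 1 GSDMB region, which were not called, and 1 row of STARD3. The lists share members, so their counts are not independent.

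STAC2 and CACNB1, which belong to the calcium channel genes and their regulators, were among the genes outside these lists. STAC2, an adaptor of voltage-gated calcium channels, was among the 5 genes of highest fold enrichment of those with a peak in all 6 libraries, and its strongest 3′ UTR region had folds of 22.0, 13.8 and 29.8 in resistant and 42.8, 21.7 and 10.6 in sensitive libraries. The lines overlapped at STAC2, and its compared row, in the neighbouring 3′ UTR region, stood at 1.23 in the authors' deposited table. CACNB1, a channel subunit, had a region at the end of its coding sequence with folds of 25.7, 16 and 8.51 in resistant and 14.3, 8.08 and 9.15 in sensitive libraries, again with overlap. CTD-2267D19.3 had a 3′ UTR row just outside the limit on p, with a fold of 1.71 and a deposited p of 0.0513 in the authors' deposited table.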

How the data were processed

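m6A RNA immunoprecipitation sequencing had been run on 12 libraries, IP and input in triplicate for each line. The authors aligned reads with HISAT2, per the submitters' processing notes. Neither the build nor the peak caller is stated, nor how p-values of the comparison were made. Each deposited IP list gives a fold enrichment (a linear ratio) and a p-value per peak, per the file headers. The lists of sensitive cells were assigned to their libraries by the letter and number of the sheet name, which is not the sample title, so this assignment is inferred. The deposited comparison table gives a fold (ratio) of resistant over sensitive cells and a p-value per region, per the file headers, with no value per library. Both sheets of called regions equalled the rows with p below 0.05 and a fold beyond 1.5 times in their direction.

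Coordinates are printed as 1-based. Rows sharing at least 1 exonic base on a strand were chained into merged regions, each represented by its row of smallest p. Libraries of a line were compared by an exact permutation test, and the segment with the rest of the same list by an exact sign-flip permutation test, both two-sided. Intervals are exact Clopper-Pearson at 95%. Python 3.11.15, pandas 2.3.3, numpy 2.4.6 and scipy 1.17.1 were used, and the code was tested on simulated data. Named were genes with a called row or with peaks in all 3 libraries of 1 line and 0 of the other. Also named were the 8 genes with the smallest p. So were the 5 with the highest and 3 with the lowest folds among genes with a peak in all 6 libraries. At the edges, the first and last gene with a peak inside the bounds and the nearest outside on each side were named. Others came from lists of amplicon core, Mediator, proteasome, nuclear receptors, RNA processing, replication, chromatin, cytoskeleton, signalling, gasdermin and lipid, and ubiquitin and ribosome genes. C17orf96, CACNB1 and CTD-2267D19.3 were named after their values were seen, and CISD3, CSF3 and CTB-58E17.5 were also named outside these rules. The segment and the lists were chosen with earlier results of these data known. The 5′ UTR share, the series-wide share of regions without overlap and the 17q23 and 20q13 windows were added after the data had been seen. Gene names were matched to RefSeq (GRCh38.p14) for names and order only. Input libraries were not analysed here.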

Additional observations from a re-analysis of the deposited data

How the results depend on the processing

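For the number of genes, regions and share of peaks per library, the exact permutation test cannot give a p below 0.1, so no alternative could pass 0.05. That smallest p was reached for genes with peaks of p below 1e-05 (means of 33.3 in resistant and 30.3 in sensitive libraries). At a fold of at least 5 it was reached for genes (18.3 and 14.7) and merged regions (23 and 17.3). With an equal number of top peaks per library, the means were 34 and 33.3 genes (exact permutation p = 0.7) and 68.3 and 67.3 regions (p = 0.8). With 1 library left out, the difference of resistant and sensitive means was 1 to 2.17 genes, 0.5 to 6 regions and -0.000135 to 0.0311 percentage points. Libraries of the same replicate number showed no clear shared deviation (correlations of deviations -0.0275, -0.00521 and -0.0562 over 5764 regions). These values cannot tell whether such libraries were handled together. With a replicate block the differences were 1.67 genes (exact sign-flip permutation p = 0.5), 4 regions (p = 0.5) and 0.0170 points (p = 0.75). There, 3 pairs allow no p below 0.25.

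Against the rest of the lists, peaks with a fold of at least 5 gave a log2 fold difference of 0.52 (reversed) and a stop codon share of -0.627 points. Against 17q23 the −log10 p difference was 0.977, and against 20q13 the log2 fold difference was 0.0488 (reversed); the cause of each was not tested. With 5 libraries the sign-flip test cannot go below 0.0625, and the differences were 8.35 to 9.44 for −log10 p, -0.33 to -0.28 for log2 fold, -3.12 to -2.55 points for stop codon regions and 12.01 to 12.7 points for 5′ UTR regions. The share of regions without overlap was 8.47% to 24.6% for resistant and 3.51% to 15.6% for sensitive cells. These extremes came from leaving out 1 library, which held its line to 2 of 2 libraries and the other line to 2 of 3.

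In the authors' deposited table, the 11 rows called higher became 2 after division by the median fold, 8 after Benjamini-Hochberg adjustment and 4 as merged regions, and the 2 called lower became 3, 0 and 2. Read depth per library is unknown, which limits any statement about absent peaks.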

Other observations

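Other windows that are known to be amplified in BT474 gave these values in the same comparison. In the authors' deposited table, 87.9% of the 58 rows of 17q23 and 72.6% of the 146 rows of 20q13 had a fold above 1, compared with 75.04% of the whole table. Their median folds in the authors' deposited table were 1.22 at 17q23 and 1.13 at 20q13, compared with 1.25 for the whole table. At 17q23, 4 rows of the authors' deposited table were called higher and 0 lower, and at 20q13, 12 were called higher and 0 lower, where 9.88% of all rows were called higher and 1.75% lower.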
